A study of Mus musculus with 6 samples.

Results

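The genes Egln3, Gfra1, Kcnk10, SYNE1 and Slc5a7 had linear RNA at or near 0 counts in mural granulosa cells before hCG, and all 5 were counted in every library 4 h after it. They were chosen by these very counts, from rows of the deposited count table that are typed circRNA and name the gene, so their difference between the time points, linear and circular, is given as a description with no test. They have 10 of the 42381 circRNA in the table and are 5 of 7843 gene names with a circRNA. A further 33 back-splice junctions name them but have no type, which makes 43 of 316626 junctions in all.

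The mice were wild type (WT) CF-1 animals, 21 days old when they were given 5 IU of PMSG, also called eCG, which drives the growth of ovarian follicles. The 4-h post-hCG group (n = 3) was also given hCG, a hormone that binds the LH receptor and so mimics the LH surge, 46 h after PMSG and was sampled 4 h later, and the 0-h group (n = 3) was sampled at 46 h after PMSG alone. Both groups had therefore received PMSG, and there was no group without it. By the study's methods the mural granulosa cells, which line the wall of the follicle, were let out by puncturing preovulatory follicles of 3 mice per time point, and small follicles, oocytes and cumulus complexes were taken out. No sort by a cell marker is described. The depth was 66593 to 89982 circRNA back-splice reads a library at 4-h post-hCG and 65994 to 91854 at 0-h.

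A circRNA forms when an exon's end is spliced backwards onto the start of the same or an earlier exon, and reads across that joint are its back-splice reads. The linear RNA of the same gene is spliced in the usual order, and its count stands in the same row of the table. The 5 genes have unrelated roles. Egln3 (also PHD3) is a prolyl hydroxylase that uses oxygen to mark hypoxia-inducible factor (HIF) for breakdown, and its gene is itself a known HIF target. Gfra1 is the receptor subunit that binds GDNF and signals with the kinase RET. Kcnk10 (TREK-2) is a two-pore potassium channel. Slc5a7 is the high-affinity choline transporter, best known from cholinergic neurons. Syne1 encodes nesprin-1, a giant protein that links the outer nuclear membrane to actin. The table writes this gene SYNE1 in capitals, its coordinates lie in the mouse gene Syne1, and no circRNA row is named Syne1.

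The circRNA were placed on GRCm38 and on GENCODE transcripts, and every one of the 5 genes lies on the minus strand. The single Egln3 circRNA, chr12:54183880-54185660, spans exons 2 to 3 of 5 and holds 257 coding bases. The single Kcnk10 circRNA, chr12:98489905-98518832, spans exons 2 to 4 of 7 with 614 coding bases. Of the Gfra1 circRNA, chr19:58263912-58270163 spans exons 7 to 9 of 11 and chr19:58263912-58300578 spans exons 6 to 9, so that both end at the same exon. Of the Slc5a7 circRNA, chr17:54292936-54293927 spans exons 3 to 4 of 9 and chr17:54284162-54293927 spans exons 3 to 6, so that both begin with the same exon. Of the 4 SYNE1 circRNA, chr10:5403841-5456868 spans exons 3 to 13 of 146, chr10:5424204-5456868 exons 3 to 8 and chr10:5403841-5426275 exons 6 to 13. The last, chr10:5541948-5542212, is exon 2 alone, with 67 coding bases and 198 of 5′ UTR.

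The joints of the 9 circRNA made of coding exons alone are shown because they are what a back-splice read has to cross. Each is the RNA-sense sequence of the reference, 5′ to 3′, with the last 20 bases of the downstream exon in lower case and the first 20 bases of the upstream exon in capitals.
Egln3 exons 2 to 3: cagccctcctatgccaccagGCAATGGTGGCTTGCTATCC
Kcnk10 exons 2 to 4: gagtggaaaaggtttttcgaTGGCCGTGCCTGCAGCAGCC
Slc5a7 exons 3 to 4: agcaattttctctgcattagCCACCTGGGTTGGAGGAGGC
Slc5a7 exons 3 to 6: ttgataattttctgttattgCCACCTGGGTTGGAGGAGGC
Gfra1 exons 7 to 9: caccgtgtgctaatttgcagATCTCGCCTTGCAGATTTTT
Gfra1 exons 6 to 9: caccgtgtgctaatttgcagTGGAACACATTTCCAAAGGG
SYNE1 exons 3 to 13: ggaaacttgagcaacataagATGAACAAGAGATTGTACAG
SYNE1 exons 3 to 8: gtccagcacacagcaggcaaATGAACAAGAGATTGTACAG
SYNE1 exons 6 to 13: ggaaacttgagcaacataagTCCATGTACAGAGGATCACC

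The shared parts show which circRNA use a common exon end: the capitals are the same in both Slc5a7 joints, and the lower-case part is the same in both Gfra1 joints. In all 6727 sets of 4 circRNA that share their starts and ends crosswise, the linear counts were additive within 2 counts in each of the 6 libraries, so that a linear count was a part for the start plus a part for the end. Rows that share an exon end therefore do not have independent linear counts. The introns beside every one of the 10 joints carry the GT and AG of a usual splice site, as they did at 99.6% of all circRNA.

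Linear RNA of the choline transporter Slc5a7 was read in depth at 4-h post-hCG and hardly at all at 0-h. In the row for exons 3 to 4 it had 224, 98 and 91 linear counts at 4-h post-hCG, against 0, 0 and 0 at 0-h. In CPM, which scales the linear counts of the top row of each gene name to their TMM-adjusted library total, this was 119 ± 48.5 at 4-h post-hCG (SD, n = 3). In this row the pooled 4-h libraries, at 121.6 CPM, were at least 147-fold above a floor of 3 counts over the 0-h group. That bound is for this row alone and not for the gene, whose other circRNA row gave a lower ratio. The 4-h libraries were uneven, at 173, 79.6 and 104 CPM, but none came near the 0-h libraries. The row for exons 3 to 6 had 185, 88 and 84 linear counts at 4-h post-hCG, against 0, 4 and 0 at 0-h, a ratio of 95.3 of the pooled rates (95% exact interval 36.9 to 352). Such intervals cover counting error only, not the spread between mice.

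SYNE1 was read at both ends of the stretch that its circRNA cover. Exon 2 had 86, 43 and 48 linear counts at 4-h post-hCG, against 0, 2 and 0 at 0-h, a ratio of 94.5 (25.8 to 786). The row for exons 3 to 13 had 78, 38 and 38 at 4-h post-hCG, against 0, 0 and 4 at 0-h. The row for exons 6 to 13 had 52, 22 and 30 at 4-h post-hCG, against 0, 0 and 3 at 0-h. The groups did not overlap in any of these rows, and the first 4-h library was the highest in each. Every 4-h library was likewise above every 0-h library for 20.9% of all 6956 gene names tested. The row for exons 3 to 8 had 77, 29 and 22 at 4-h post-hCG and, with 2, 2 and 1, was the only one of the 10 read in all 3 libraries at 0-h, a ratio of 27.3 (11.4 to 85.6).

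Gfra1, the GDNF receptor subunit, had 39, 51 and 25 linear counts at 4-h post-hCG, against 1, 0 and 0 at 0-h, in the row for exons 6 to 9. Its level was 33.4 ± 6.97 CPM at 4-h post-hCG and 0.283 ± 0.490 CPM at 0-h (SD, n = 3 each), and with 1 count at 0-h the ratio of the pooled rates, 123, is loosely fixed (21.6 to 4893). The row for exons 7 to 9 had 19, 34 and 27 at 4-h post-hCG, against 0, 0 and 2 at 0-h. In both rows every 4-h library was above every 0-h library, as for 20.9% of all gene names tested. The second 4-h library, not the first, had the most counts before scaling.

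The oxygen sensor Egln3 had 36, 26 and 21 linear counts at 4-h post-hCG, against 0, 0 and 0 at 0-h. The 4-h libraries lay close together, at 24.3 ± 3.37 CPM (SD, n = 3), and pooled, at 24.4 CPM, were at least 29.5-fold above the floor. The potassium channel Kcnk10 had 23, 15 and 20 linear counts at 4-h post-hCG, against 0, 0 and 0 at 0-h, or 17.6 ± 5.37 CPM at 4-h post-hCG (SD, n = 3), and the pooled 4-h libraries, at 17.1 CPM, were at least 20.6-fold above the floor. For these rows of Egln3 and Kcnk10 a count of 0 in the pooled 0-h libraries allows a level of up to 0.827 CPM. Egln3 was not wholly unread at 0-h. Its junction chr12:54180164-54180546, which has no type, had 80, 44 and 43 linear counts at 4-h post-hCG, against 0, 0 and 3 at 0-h. The Kcnk10 junctions with no type had 0 linear counts at 0-h. In these bulk samples, more cells that express a gene and more RNA per cell cannot be told apart.

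**Figure D1:**
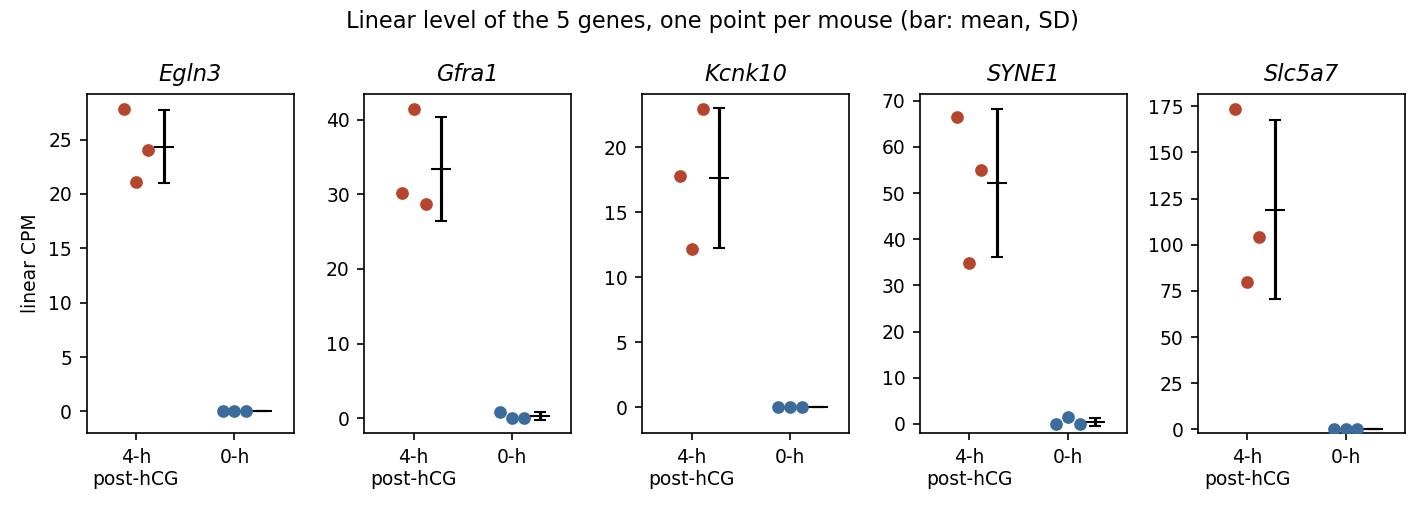
Linear level in CPM of the row that stands for each gene, with 1 point per mouse and the mean and SD beside the points, for 4-h post-hCG (left) and 0-h (right) in each panel. All 3 libraries at 4-h post-hCG lie above all 3 at 0-h in every panel, and the vertical scales differ; for Slc5a7 the 4-h points lie at 173, 79.6 and 104 CPM.

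For every one of the 5 genes, the lowest 4-h library was above the highest 0-h library. The same was true of 20.9% of the 6956 gene names that passed the filter on low counts, and the members were picked for it. In the fit across those gene names (edgeR's quasi-likelihood test, where a call needs a Benjamini-Hochberg adjusted p no higher than 0.1 and a change of 1.5-fold or more), 13% were called higher and 12.8% lower at 4-h post-hCG. All 5 members passed the filter, which they could do only through their 4-h libraries.

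The size of the silent set can be given from the counts. With the row of the highest linear total standing for each gene name, the highest 0-h total among the 5 genes was 2 counts over 3 libraries, and the lowest 4-h total was 58. Other circRNA rows of SYNE1 and Slc5a7 had up to 5 counts at 0-h. Among the junctions with no type, the 0-h total reached 7 linear counts for Slc5a7, 6 for Gfra1 and 3 for Egln3. Of 195 gene names with at most 2 linear counts at 0-h, 9 reached 58 or more at 4-h post-hCG, and the median total of the 195 at 4-h post-hCG was 2. The others were Areg, an EGF-like ligand released after the LH surge, Sult1e1, the estrogen sulfotransferase, Pgr, the progesterone receptor, and Has2, which makes hyaluronan. Just inside the limits stood Kcnk10 itself, with 58 counts at 4-h post-hCG and 0 at 0-h. Just outside stood Tmod1, with 50 at 4-h post-hCG and 2 at 0-h, and Adamts3, with 96 at 4-h post-hCG and 3 at 0-h.

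**Figure D2:**
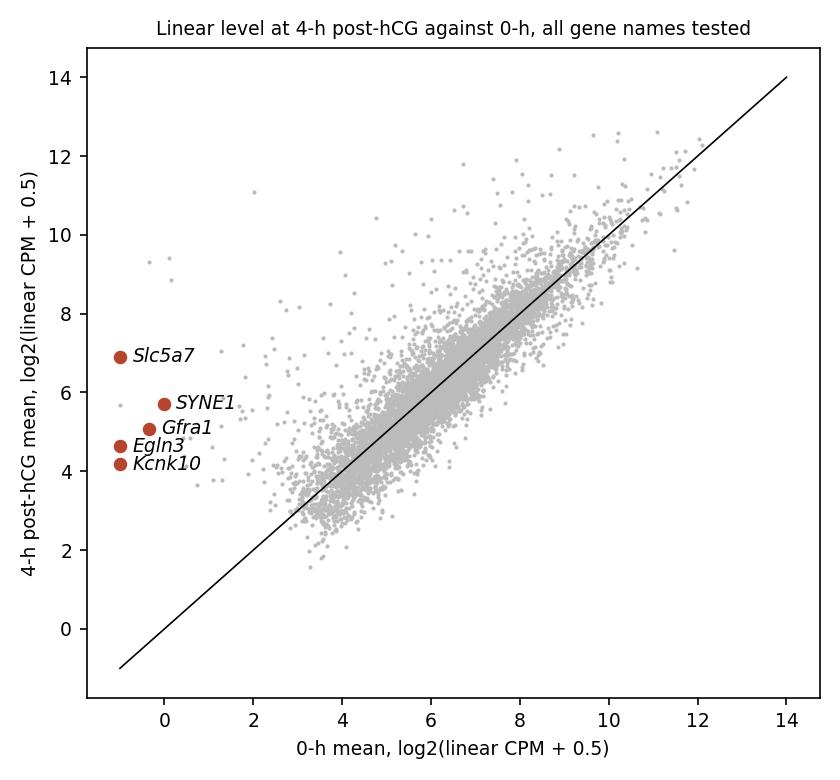
Mean linear level at 4-h post-hCG (vertical) against 0-h (horizontal), as log2 of CPM plus 0.5, with 1 grey point for each of 6956 gene names, the 5 genes in red and the line of equal level in black. The 5 genes lie at the left edge, apart from the main cloud.

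The circular form was read far less often than the linear one. Over the 10 circRNA there were 16, 7 and 6 back-splice reads at 4-h post-hCG, against 0, 0 and 2 at 0-h, 29 against 2 in all. Both 0-h reads belonged to Gfra1 exons 7 to 9, in a library with 2 linear counts of the same row. Of the 10 circRNA, 9 were read at 4-h post-hCG only, as were 31.1% of all circRNA, and 7 were read in a single library, as were 57.9% of all circRNA.

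No circRNA of these genes was read in all 3 libraries of a group. Slc5a7 exons 3 to 4 had 3, 0 and 2 back-splice reads at 4-h post-hCG, and Kcnk10 had 3, 1 and 0, with none at 0-h for either. Gfra1 exons 7 to 9 had 0, 5 and 0 at 4-h post-hCG, and Gfra1 exons 6 to 9 had 3, 0 and 0. For SYNE1, exons 6 to 13 had 4, 0 and 0 and exons 3 to 13 had 3, 0 and 0, so that the first 4-h library held 7 of the 9 SYNE1 reads. The Egln3 circRNA rested on 1 read, in the third 4-h library. None of the 10 reached 100 CPM of circRNA reads in 3 libraries, and none of the 5 genes passed the filter on summed back-splice reads. They were therefore outside the fits of circular RNA, which called 1.21% of 1658 abundant circRNA and 1.18% of 1604 gene names.

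**Figure D3:**
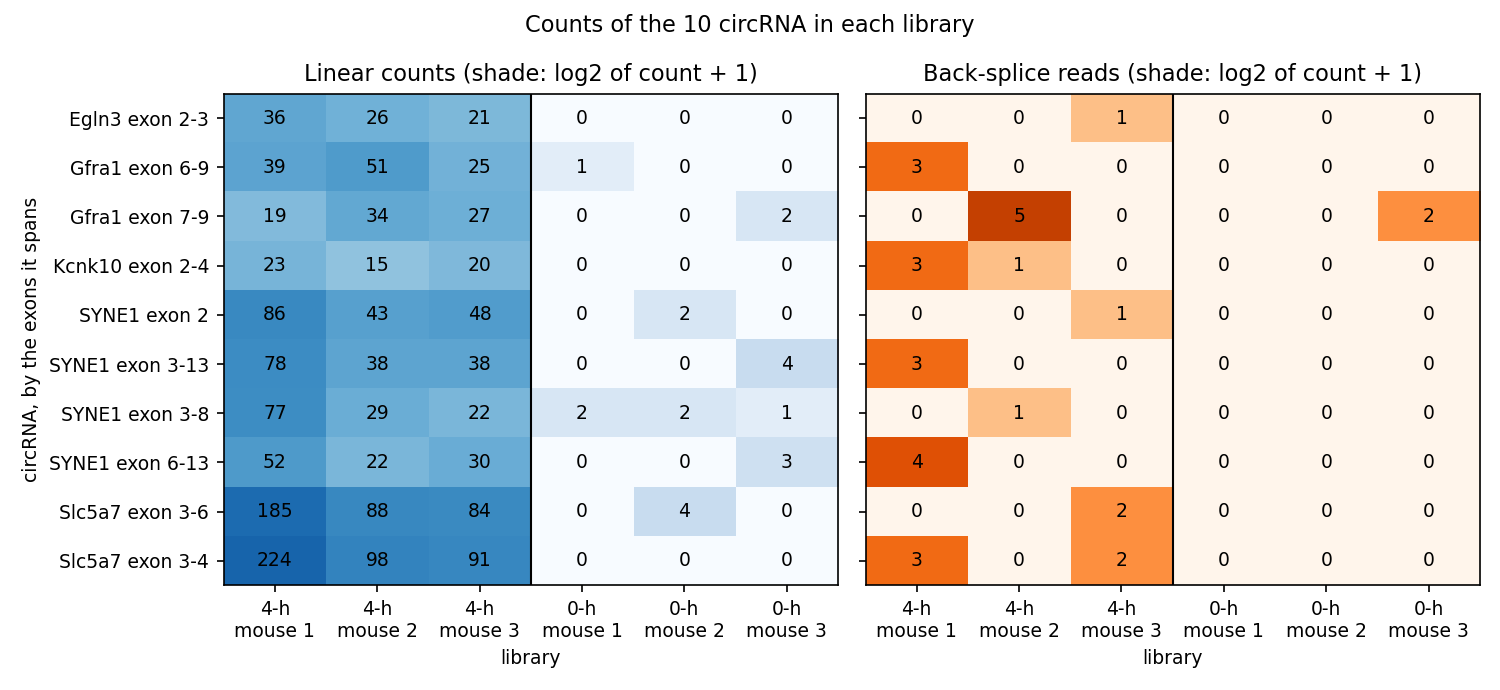
Linear counts (left panel) and back-splice reads (right panel) of the 10 circRNA, 1 row each, in the 3 libraries at 4-h post-hCG and, right of the black line, the 3 at 0-h; the shade is log2 of the count plus 1. Linear counts fill the 4-h columns of every row, while back-splice reads stand in 1 or 2 of them.

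At 4-h post-hCG there were 1.74 back-splice reads per 100 linear counts over the 10 rows (95% exact interval 1.16 to 2.51), at 1.95, 1.58 and 1.48 in the 3 libraries. Rows that share an exon end bring the linear counts of that end into the sum more than once, which the interval does not allow for. The additivity of the linear counts does not tell a sum of both ends from their average. If they are sums, a ratio to the linear RNA at a single end would be higher, for these circRNA as for all others. As a share of back-splice plus linear counts, the circRNA ran from 0.557% for Slc5a7 exons 3 to 6 (0.0675% to 2.00%) to 6.45% for Kcnk10 (1.79% to 15.7%). The median of the 27886 circRNA with a back-splice read and a linear count at 4-h post-hCG was 1.20%, with quartiles at 0.470% and 3.37%. Slc5a7 exons 3 to 4, at 1.20%, and Egln3, at 1.19%, stood at that median. Kcnk10, Gfra1 exons 7 to 9, at 5.88%, and SYNE1 exons 6 to 13, at 3.70%, were above the upper quartile, with intervals that reach below it. These shares were not tested, since a circRNA enters such a list only with at least 1 back-splice read.

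**Figure D4:**
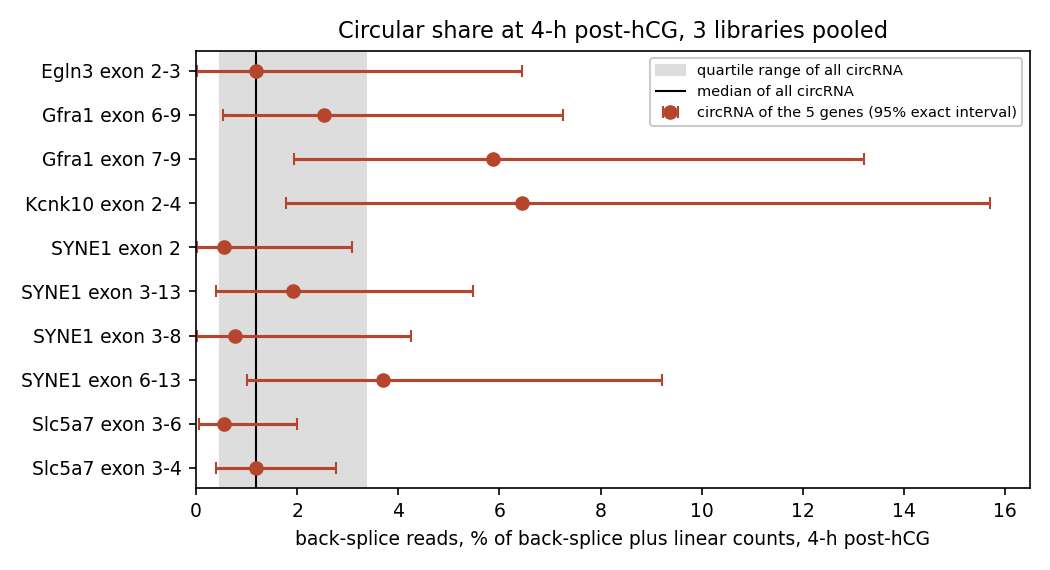
Back-splice reads as a percentage of back-splice plus linear counts, pooled over the 3 libraries at 4-h post-hCG, for the 10 circRNA with 95% exact intervals, beside the median (black line) and the range between the quartiles (grey) of all circRNA at that time. The 10 values lie between 0.557% and 6.45%, and the intervals of Kcnk10 and of Gfra1 exons 7 to 9 alone lie wholly above the median of 1.20%.

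The joints of these circRNA lay between long introns. The introns before and after a joint summed to a median of 44672.5 bases over the 10 circRNA, against 8664.5 bases over 42320 circRNA with both introns known, and their genomic span had a median of 16100.5 bases against 9219. The longest flanking intron, 91994 bases, lies before exon 6 of Gfra1, and the one between exons 2 and 3 of SYNE1 measures 85079 bases. Slc5a7 was the exception, with 3031 bases before exon 3 and 5432 or 2285 bases after the joint. Rows of one gene share introns, so these are not 10 separate values, and the difference was not tested.

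The 33 untyped junctions of the 5 genes held 35 back-splice reads at 4-h post-hCG and 28 at 0-h, and each was read in a single library. Only 1 of the 33 had GT and AG at its ends, as did 8.07% of all untyped junctions. A copy shifted by at most 2 bases with the same counts was present for 14 of the 33 (42.4%), against 23.4% of all untyped junctions. With such copies merged, 26 junctions remained, with 29 reads at 4-h post-hCG and 17 at 0-h. The linear counts in their rows differed widely. For the untyped Slc5a7 junction chr17:54275882-54275938 they were 235, 142 and 109 at 4-h post-hCG, against 2, 3 and 2 at 0-h. For the untyped SYNE1 junction chr10:5399335-5463411 they were 5, 1 and 1 at 4-h post-hCG, against 0, 0 and 0 at 0-h, far under the SYNE1 circRNA.

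Over the 6 libraries the 5 genes ran alongside one another, with Pearson r of log2 CPM (prior count 2) from 0.965 for Gfra1 and SYNE1 to 0.999 for Egln3 and Slc5a7. Such values mostly reflect the gap between the groups of 3 libraries, and the 5 genes were chosen for that gap. Of 6951 other gene names, 445 had r above 0.95 with Egln3. The nearest to Egln3 were Bin1, Adamts9 and Eif3c, those to Gfra1 were Ube2d3, Prkar1a and Hao2, and those to Kcnk10 were St6gal1, Ncbp1 and Man2a1. SYNE1 was nearest to Top1, Phldb2 and Pcsk6, and Slc5a7 to Vcl, Adamts9 and Slc2a1. None of these was silent at 0-h: Bin1 had 2553, 1888 and 1389 linear counts at 4-h post-hCG, against 123, 142 and 116 at 0-h.

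Around Egln3, the other hydroxylases of the oxygen-sensing list, Egln1, Egln2 and Hif1an, and Vhl have no circRNA row and so no value here. Of its 3 tested members, 1 was higher and 2 did not pass, beside 13% of all gene names tested called higher and 12.8% lower. Hif1a, the oxygen-regulated HIF subunit, rose to 1237 ± 33.3 CPM at 4-h post-hCG, against 554 ± 167 CPM at 0-h (SD, n = 3 each), with a log2 fold change of 1.16 (SE 0.17, edgeR adjusted p = 1.94e-05). Epas1 (HIF-2α), at 116 ± 3.14 CPM at 4-h post-hCG and 161 ± 31.3 CPM at 0-h (SD, n = 3 each), had a log2 fold change of -0.46, under the fold limit, and Arnt, the partner of both, had -0.14.

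Of 13 tested HIF targets other than Egln3, 5 were higher, 1 was lower and 7 did not pass. Over all gene names tested, 13% were called higher and 12.8% lower. The median log2 fold change was 0.26 for these targets, beside -0.01 over all gene names. Bhlhe40, a transcriptional repressor, was higher by 2.90 on the log2 scale (SE 0.25, edgeR adjusted p = 5.02e-09) and Slc2a1, the glucose transporter GLUT1, by 2.31 (SE 0.15, edgeR adjusted p = 5.83e-11). Mxi1, a MAX-binding repressor, was higher by 1.41 (edgeR adjusted p = 1.23e-05). Pdk1, which holds back pyruvate dehydrogenase, went the other way, with 35.2 ± 3.30 CPM at 4-h post-hCG and 89.2 ± 7.99 CPM at 0-h (log2 fold change -1.33, edgeR adjusted p = 4.79e-05). The glycolytic Ldha (0.16) and the collagen hydroxylase P4ha1 (0.26) did not pass.

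For Gfra1, neither the ligand Gdnf nor the kinase Ret has a circRNA row, and none of the 3 tested genes of the list passed in edgeR (adjusted p = 0.393 to 0.853) or DESeq2, with 0 of them at an unadjusted p under 0.05. The adaptor Shc1 had a log2 fold change of 0.16 (SE 0.17) and the sorting receptor Sorl1 one of -0.23 (SE 0.19). For Kcnk10, Kcnk1 was the only other two-pore channel tested, at 22.5 ± 6.87 CPM at 4-h post-hCG and 32.5 ± 3.96 CPM at 0-h (SD, n = 3 each), and did not pass (edgeR adjusted p = 0.198). The other TREK channel with a circRNA row, Kcnk2, was under the filter.

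Around Slc5a7, 5 genes of the choline and acetylcholine list were tested, of which 2 were higher, 1 was lower and 2 did not pass. The shares over all gene names tested were 13% called higher and 12.8% lower. Chat, which makes acetylcholine, and Slc18a3, which loads it into vesicles, have no circRNA row. Slc44a1, a choline transporter of broad distribution, rose to 397 ± 42.0 CPM at 4-h post-hCG, against 123 ± 8.98 CPM at 0-h (SD, n = 3 each; log2 fold change 1.68, SE 0.16, edgeR adjusted p = 1.65e-08). Pcyt1a, the rate-setting enzyme of phosphatidylcholine synthesis, rose to 363 ± 73.9 CPM at 4-h post-hCG, against 85.7 ± 24.5 CPM at 0-h (log2 fold change 2.07, SE 0.20, edgeR adjusted p = 3.84e-08). Slc44a3 was called lower (log2 fold change -0.61, edgeR adjusted p = 0.083), a call lost with DESeq2 (adjusted p = 0.125) and without 4-h replicate 1 (-0.30, edgeR adjusted p = 0.388). Slc44a2 (-0.23) and the choline kinase Chka (-0.54, edgeR adjusted p = 0.093, under the fold limit) were not called.

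Around SYNE1, 10 genes of the nuclear envelope list were tested, of which 1 was higher and 9 did not pass. Of all gene names tested, 13% were called higher and 12.8% lower. Lmnb1, a lamin of the nuclear lining, rose to 450.0 ± 47.5 CPM at 4-h post-hCG, against 197 ± 21.2 CPM at 0-h (SD, n = 3 each; log2 fold change 1.19, SE 0.15, edgeR adjusted p = 2.4e-06). Syne2, which encodes the related nesprin-2, was read in depth at both time points, with 730 ± 91.4 CPM at 4-h post-hCG and 792 ± 103 CPM at 0-h (log2 fold change -0.12, SE 0.15), and Plec, a linker of the cytoskeleton, had -0.21.

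The labelled cell type was read in its markers. Of 10 granulosa markers, 6 have a circRNA row. Their summed level was 7035 to 7560 CPM at 4-h post-hCG and 6612 to 9383 CPM at 0-h. Of these 6, 1 was called higher and 3 lower at 4-h post-hCG, among them Fshr (log2 fold change -1.38, edgeR adjusted p = 2.22e-06) and Cyp19a1 (-0.97, edgeR adjusted p = 2.87e-05). Of the 11 tested genes of a list of known hCG responses, 7 were higher and 3 lower. For both lists, the shares over all gene names tested were 13% higher and 12.8% lower. Slc5a7 and Gfra1 are known from neurons, and of 9 neuron and glia markers only Elavl4 has a circRNA row, under the filter on low counts. It had 9.28, 0 and 0 CPM in the 4-h libraries and 0.913 to 3.69 CPM at 0-h. With 1 marker at so low a level, this list cannot tell how much RNA came from neurons. Endothelial markers (5 of 8 with a row) summed to 13.8 to 33.3 CPM at 4-h post-hCG and 14.6 to 22.9 CPM at 0-h, immune markers (4 of 8) to 39.0 to 41.4 CPM at 4-h post-hCG and 33.9 to 61.2 CPM at 0-h, and oocyte markers (3 of 10) to 76.6 to 109 CPM at 4-h post-hCG and 84.9 to 106 CPM at 0-h. Theca and stroma markers (2 of 8) summed to 92.8 to 117 CPM at 4-h post-hCG and 139 to 184 CPM at 0-h, and smooth muscle and pericyte markers (2 of 6) to 58.0 to 103 CPM at 4-h post-hCG and 65.7 to 112 CPM at 0-h. Oviduct and surface epithelium markers have no circRNA row. All markers were looked up in circRNA rows only, and junctions with no type were not searched. The part of other cells in the counts of the 5 genes was not tested.

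Motifs were looked up on both strands in the 250 bases before the gene starts of RefSeq (GRCm38.p6), where the 5 genes have 8 promoters. The full cAMP response element TGACGTCA was in none of the 8, and in 1.55% of 32851 promoters. Its half-site TGACG (17.8% of promoters) and the HIF core ACGTG (16.6%) were found for Egln3 alone among the 5 genes, the RUNX motif TGTGGT (14%) for Syne1 and the progesterone receptor half-site TGTTCT (16.1%) for Kcnk10. The AP-1 motif TGANTCA (6.75%) and the C/EBP motif TTGCNNAA (9.56%) were in none. The Egln3 windows are shown since Egln3 holds 2 of the motifs, given in capitals, 34 bases before the gene start for the half-site and 229 bases before it for the HIF core.
Egln3 half-site: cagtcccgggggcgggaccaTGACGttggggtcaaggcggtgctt
Egln3 HIF core: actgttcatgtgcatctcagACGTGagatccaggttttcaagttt

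These matches are letters in a window, and no binding was measured.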

How the data were processed

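Total stranded RNA was sequenced, and the authors used cutadapt for trimming, TopHat and TopHat-Fusion for mapping (GRCm38) and CIRCexplorer for back splices. They deposited raw counts of back-splice reads and of linear RNA for each junction. The counting method for linear RNA was not stated in the labels or the methods. The values held a part for each end of a junction, as a sum or an average would. A second deposited table holds normalised values with fold changes and p-values of the study, and was not used.

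Counts were tested with edgeR 4.0.16 in R 4.3.3 (quasi-likelihood, TMM, Benjamini-Hochberg, two-sided). For linear RNA, the circRNA row with the highest linear total stood for each gene name. DESeq2 1.42.0 was an alternative. Circular RNA was tested at 100 CPM in at least 3 libraries. Back-splice reads that name no gene (15.6% to 18.9%) stayed out of the gene sums. Scripts were tested on simulated data. Intervals are exact (95%) and cover counting error only. Figures used Python 3.11.15 and matplotlib 3.10.9.

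The members and lists were chosen with earlier results of these data known. Named genes were the 5 members, the 3 nearest by r to each, and, from each list, up to 4 called genes with the largest change and up to 2 not called with the highest count. The genes of the silent set were named after their values were seen.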

Additional observations from a re-analysis of the deposited data

Results flagged for a closer look

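The untyped back splices stood outside the comparisons of the report (an alternative with all junctions that name a gene takes them in), and for 4 of the 5 genes they held more reads at 4-h post-hCG than at 0-h. There were 5 at 4-h post-hCG and 2 at 0-h for Egln3, 8 and 2 for Gfra1, 4 and 0 for Kcnk10, and 4 and 0 for SYNE1. The Egln3 reads at 4-h post-hCG all came from 1 library, and each junction was read in a single library. Over all 5 genes, 55.6% of the untyped reads stood at 4-h post-hCG, beside 46.2% for all untyped junctions of the series. Shifted copies count the same Gfra1 reads again, and with these merged Gfra1 had 5 at 4-h post-hCG and 1 at 0-h.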

How the results depend on the processing

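Counts of calls stayed within 1.5 times of those reported, with these exceptions. With every junction that names a gene, 3261 gene names were called for linear RNA in place of 1793, and 123 for summed back-splice reads in place of 19 (of 3018 tested in place of 1604); the cause was not tested. Without a filter, 7 circRNA were called in place of 20. Leaving out 1 replicate gave 1551 to 1978 calls for linear RNA, 10 to 19 for abundant circRNA (10 without 0-h replicate 2, 11 without 4-h replicate 3 and 12 without 0-h replicate 3) and 12 to 21 for summed reads (12 without 0-h replicate 2); the cause was not tested. Back-splice reads per 100 linear counts of the 10 circRNA were 1.53 to 1.82. The replicate block gave 1754, 18 and 23 calls, and same-numbered libraries did not deviate together (r of -0.07 to 0.06). The samples were treated as unpaired, and a weaker shared effect of handling was not tested. Of 240 refits of the 20 pathway genes, 234 kept their call, 5 lost it, all of Slc44a3, and Chka gained one without 4-h replicate 3. The fitted linear log2 fold changes of the 5 genes ran from 4.75 to 10.35 over 60 refits, 12 of which moved by more than the spread between replicates; the genes were chosen for this difference, so its direction is no sign of stability. Their back-splice reads could not be fitted.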

Other observations

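The 17 untyped Slc5a7 junctions held more back-splice reads in sum at 0-h than at 4-h post-hCG, through 0-h replicate 1 alone. They held 14 back-splice reads at 4-h post-hCG (4, 3 and 7 in the 3 libraries), against 24 at 0-h, of which 21 stood in 0-h replicate 1, 0 in replicate 2 and 3 in replicate 3. The junction chr17:54273878-54276291 had 7 of these reads in 0-h replicate 1, as did its copy shifted by 1 base, while the linear counts of that row in the same library were 0. With shifted copies merged, 11 reads stood at 4-h post-hCG and 14 at 0-h, 11 of them in 0-h replicate 1. Neither junction has the GT and AG of a usual splice site.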
